A study of Mus musculus with 48 samples.

Results

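The 8 arrays compared here are the 4 labelled embryonic day 12 (E12) and the 4 labelled E11, out of 48 arrays of mouse hypothalamus and preoptic area that cover 12 ages from E10 to the adult. They were chosen by their age label alone. Each age holds 1 array of a C57Bl/6 female, a C57Bl/6 male, a CD-1 female and a CD-1 male. C57Bl/6 is an inbred strain and CD-1 an outbred stock, and the labels name no mutation, transgene or drug for any group. Mice were on standard chow and a 12:12 light cycle, and tissue was dissected into an RNA preservative. The labels do not say how many embryos stand behind an array or whether arrays share a litter. The p-values therefore measure the scatter of single arrays around the effects of age, strain and sex, which may be partly technical. The E10 and E13 arrays, 4 each, entered the fit to share its estimate of spread and were used to describe the neighbouring days.

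The hypothalamus and preoptic area form from the ventral forebrain, whose wall at these ages is made mostly of dividing progenitor cells. Proneural transcription factors drive cells of that wall out of the cell cycle, while Notch signalling between neighbours keeps others dividing. A newborn neuron then builds an axon from neuron-specific tubulins and associated proteins, changes its RNA splicing, and later makes transmitter enzymes, transporters and channels.

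Values are MAS5 signal, a linear intensity per probe set, and each gene stands for its brightest probe set. Levels of different genes cannot be set against each other on this scale. Changes are differences of log2(signal + 16) between E12 and E11 with the SE of the limma fit, so the folds of dim genes are understated. A gene was called at a Benjamini-Hochberg adjusted p under 0.05 over the 12579 genes tested. Where values of 4 arrays are listed, the female stands before the male in each strain.

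The 2 C57Bl/6 E11 arrays stood apart from the other 6 arrays of E11 and E12. Their median signal was 90.5 and 77.5, against 47.1 to 69.3 in the other 6, and their ratio of 3′ to 5′ actin signal was 2.20 and 2.15, against 1.09 to 1.42. On the first principal component of the 16 arrays of E10 to E13, which held 49.7% of the variance, they lay at 4.93 and -0.17, between the CD-1 E11 arrays at -33.9 and -35.2 and the E12 arrays at 22.5 to 43.7. Over the genes tested they correlated more with the C57Bl/6 E12 arrays (r = 0.896 and 0.940) than with the C57Bl/6 E10 arrays (0.773 and 0.838). The CD-1 E11 arrays were nearer to CD-1 E10 (0.954 and 0.947) than to CD-1 E12 (0.838 and 0.867). Each r is the mean of the correlations with the single arrays of the group. Among the E10 and E13 arrays, the C57Bl/6 E13 arrays had median signals of 79.4 and 74.3, and the C57Bl/6 E10 female had an actin ratio of 2.175. Over all 16 arrays the actin ratio was 1.05 to 1.13 in CD-1 and 1.36 to 2.20 in C57Bl/6, so it went with strain. The part of array quality and of embryo stage in the place of the C57Bl/6 E11 arrays was not tested. Of 6 hypothalamic markers, 4 were above the array median in all 8 arrays (Six3, Six6, Otp and Sim1), as were all 4 progenitor and all 4 newborn neuron markers. Nkx2-1 was above it in 7 arrays and Rax in 4. Each marker of hindbrain, midbrain and lens or pigment cells was above it in 2 arrays at most, with En1, Cryaa and Tyrp1 above it in none. Markers of tissue around the brain were present, with all 4 red cell markers, Col3a1 and Prrx1 of mesenchyme, Cdh5 and Kdr of endothelium and Csf1r and Cx3cr1 of macrophages above it in all 8 arrays, Lhx3 of the pituitary primordium in 7, Pitx1 and Hesx1 in 6 and Myod1 of muscle in 5.

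**Figure D1:**
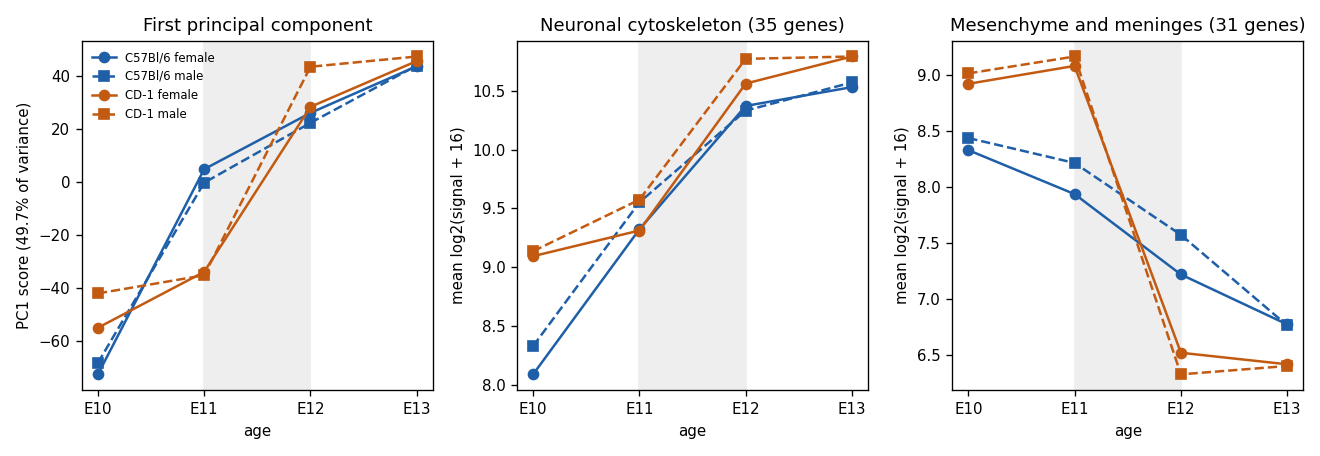
First principal component score (left) and mean log2(signal + 16) of the neuronal cytoskeleton genes (middle) and mesenchyme genes (right) by age, with 1 point per array, colour for strain and marker and line style for sex, and the grey band spans E11 to E12. The cytoskeleton genes rise in all 4 series, while the mesenchyme genes fall from 9.08 and 9.17 to 6.52 and 6.33 in CD-1 and from 7.94 and 8.22 to 7.22 and 7.57 in C57Bl/6.

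From E11 to E12, 25 of 35 neuronal cytoskeleton genes rose and none fell, 23 of 46 DNA replication genes and 25 of 51 mitosis genes fell and none rose, and 26 of 31 mesenchyme genes fell. The test called 1270 genes higher at E12, which is 10.1% of those tested, and 956 lower (7.6%). Of these, 466 rose and 290 fell by at least 2-fold. The median change over all genes was -0.06. The 2226 called genes were 17.7% of those tested. The sign was the same in all 4 matched pairs of arrays for 2110 of them (94.8%), which the call on the same arrays favours. Over all genes, 18% were higher and 20.1% lower at E12 in all 4 pairs. All 4 E12 values lay above all 4 E11 values for 1151 genes (9.15%) and below them for 987 (7.85%).

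The largest rise was that of Resp18, a protein of neuroendocrine secretory granules. Its signal was 4.33 and 19.3 in C57Bl/6 and 2.09 and 2.29 in CD-1 at E11, and 200.5 and 189 in C57Bl/6 and 361 and 294 in CD-1 at E12. The change was 3.60 ± 0.29, or 12.2-fold on the offset scale (adjusted p = 3.5e-06), and no E11 value came near an E12 value. The 12 largest rises were picked among called genes that rose in all 4 matched pairs. Separation and calls in the same arrays therefore largely follow from that choice. All 12 had every E12 array above every E11 array, against 9.15% of all genes. In the fit with a mean for each age and strain, 11 of the 12 were called in C57Bl/6 and 12 in CD-1. Over all genes 3.82% and 12.2% were called higher there. They included Tmem130 (3.08 ± 0.32), Stmn4 (2.82 ± 0.37), the adhesion molecule Chl1 (2.72 ± 0.27), the homeobox factor Uncx (2.69 ± 0.46), Jakmip1, which binds microtubules (2.64 ± 0.33), the neuronal elongation factor Eef1a2 (2.59 ± 0.54) and the microtubule protein tau, Mapt (2.56 ± 0.45). The others of the 12 were Tlcd3b (2.55), Nrsn2 (2.54), Rtl8c (2.48) and Nfix (2.45). Other probe sets of Chl1 and Nrsn2 went as low as -0.45 and -0.34, uncalled, and the mean over a gene's probe sets changed by 1.31 and 1.10. Uncx was uneven at E11, with 4.9 and 9.65 in C57Bl/6 and 25.2 and 135 in CD-1, yet its E12 values of 209 and 166 in C57Bl/6 and 341 and 377 in CD-1 were all higher.

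Of 35 tested genes of the neuronal cytoskeleton, 25 rose (71.4%) and none fell, with a median change of 1.10. Over all genes 10.1% were called higher and 7.6% lower. Tubb3, the neuronal beta-tubulin used as a marker of newborn neurons, had signals of 384 and 549 in C57Bl/6 and 627 and 876 in CD-1 at E11 and 1637 and 1494 in C57Bl/6 and 2490.2 and 2278 in CD-1 at E12. It rose by 1.70 ± 0.15 (adjusted p = 7.5e-06), with the 2 ages well apart in both strains. Tubb2a, another neuronal beta-tubulin, rose from 536 and 609 in C57Bl/6 and 551 and 805 in CD-1 to 2023 and 1763 in C57Bl/6 and 2822 and 2813 in CD-1 (1.88 ± 0.13, adjusted p = 1.6e-06). Gap43, a protein of growing axon tips, rose from 402 and 349 in C57Bl/6 and 593 and 605 in CD-1 to 1431 and 1208 in C57Bl/6 and 1730.2 and 1724 in CD-1 (1.64 ± 0.12, adjusted p = 2.0e-06). These 3 genes changed by similar amounts in C57Bl/6 (1.73, 1.70 and 1.77) and CD-1 (1.66, 2.05 and 1.50), and the strain difference was not called for any of them (adjusted p = 0.94, 0.51 and 0.64). Stmn2 and Stmn4, which destabilise microtubules in growing axons, rose by 1.68 ± 0.29 and 2.82 ± 0.37, Ina, an intermediate filament protein, by 1.96 ± 0.37, and Dcx, which stabilises microtubules in migrating neurons, by 1.53 ± 0.48 (adjusted p = 0.036). Dcx was the least even of these, with 2056 and 1775 in C57Bl/6 and 678 and 1306 in CD-1 at E11 against 4168 and 3995 in C57Bl/6 and 2604 and 5431 in CD-1 at E12, and all 4 E12 values were still the higher. Nefl and Nefm, the light and medium neurofilament subunits, went apart between the strains, with changes of 0.97 and 0.73 in C57Bl/6 and -1.13 and -1.65 in CD-1 (adjusted p of the strain difference = 0.00071 and 0.00065). They are the only members with a called strain difference in that direction and were singled out after their values were seen.

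RNA-binding proteins that shape splicing and transcript stability in neurons rose in 13 of 19 cases (68.4%) and fell in 1 (5.26%). Over all genes the shares were 10.1% and 7.6%. The median of the list was 0.79. The largest rises were those of the splicing regulators Celf5 (2.24 ± 0.32), Celf6 (2.08 ± 0.25) and Celf4 (1.94 ± 0.32). Celf5 signal was 464 and 514 in C57Bl/6 and 153 and 202 in CD-1 at E11 and 1274 and 1265 in C57Bl/6 and 1340.5 and 2082 in CD-1 at E12, so that CD-1 started lower and ended level with C57Bl/6 or above it. Elavl3, a neuronal member of the Hu family, rose by 1.14 ± 0.19 and Elavl4 by 0.79 ± 0.25 (adjusted p = 0.00078 and 0.036). The member that fell was Mbnl2, another splicing regulator (-0.80 ± 0.21).

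Genes of vesicles and secretion rose in 15 of 31 cases (48.4%) and none fell (median 0.92), where 10.1% of all genes were called higher. Beside Resp18 the largest rises were those of Rab3c, a small GTPase of synaptic vesicles (2.27 ± 0.29), and Pcsk1n, an inhibitor of the prohormone convertase (2.15 ± 0.36). Channels and receptors rose in 11 of 33 cases (33.3%) with none called lower (median 0.66). The largest rises were those of the sodium channel subunits Scn3b (1.97 ± 0.24) and Scn3a (1.91 ± 0.34) and the potassium channel Kcnd2 (1.71 ± 0.28). At an offset of 1 the calls of Scn3a (adjusted p = 0.0575) and Kcnd2 (0.108) were lost.

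Transmitter and neuropeptide genes rose in 12 of 27 cases (44.4%) and fell in 1 (3.70%), against 10.1% and 7.6% of all genes (median 0.60). Slc17a6, the vesicular glutamate transporter of most hypothalamic glutamate neurons, had 58.9 and 73.7 in C57Bl/6 and 94.1 and 95.5 in CD-1 at E11 and 340.1 and 308 in C57Bl/6 and 509 and 694 in CD-1 at E12. It rose by 2.26 ± 0.19, a 4.78-fold change (adjusted p = 6.8e-06), with no overlap. Gad1, which makes GABA, rose as well, from 69.1 and 72.7 in C57Bl/6 and 46.7 and 34.1 in CD-1 to 260.1 and 182 in C57Bl/6 and 358 and 704 in CD-1 (2.32 ± 0.35, adjusted p = 0.00043). The calcium-binding protein Calb2 rose by 2.19 ± 0.38. Pomc, the precursor of melanocortins, and Th, the first enzyme of dopamine synthesis, were not called, with changes of 0.59 ± 0.22 and 0.41 ± 0.24 (adjusted p = 0.071 and 0.25). The gene called lower was Penk, an opioid precursor (-1.44 ± 0.38).

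**Figure D2:**
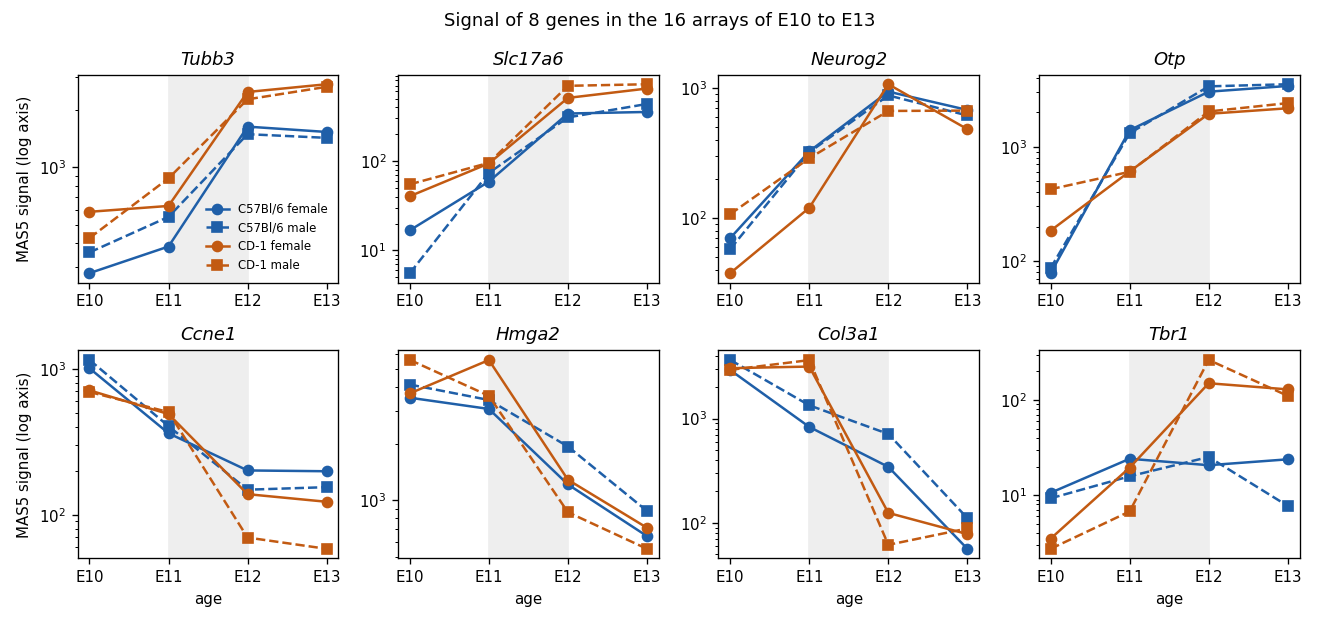
MAS5 signal on log axes of 8 genes in the 16 arrays of E10 to E13, with 1 point per array, colour for strain, line style for sex and a grey band from E11 to E12. Tubb3, Slc17a6, Neurog2 and Otp are higher in all 4 arrays of E12 than in any of E11, Ccne1, Hmga2 and Col3a1 are lower, and Tbr1 goes from 19.5 and 6.74 to 150.3 and 264.5 in CD-1.

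Transcription factors that start or follow neuron production were mixed, with 8 of 36 called higher (22.2%) and 4 lower (11.1%). Over all genes the shares were 10.1% and 7.6%. The median of the list was 0.46. Neurog2, a proneural factor that commits progenitors to the neuronal fate, had 326 and 321 in C57Bl/6 and 120.3 and 289 in CD-1 at E11 and 936 and 876 in C57Bl/6 and 1066 and 665 in CD-1 at E12. Its rise of 1.76 ± 0.26 (adjusted p = 0.00042) left the 2 ages without overlap. Myt1 (1.37 ± 0.31) and Nhlh2 (1.13 ± 0.32), both factors of young neurons, also rose, and Insm1, which marks progenitors about to divide into neurons, missed the threshold (0.91 ± 0.33, adjusted p = 0.072).

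Some factors of the list are also known from cranial sensory ganglia. Neurog1 had 13.5 and 21.6 in C57Bl/6 and 140.2 and 214 in CD-1 at E11 and 88.1 and 66.9 in C57Bl/6 and 79.3 and 35.2 in CD-1 at E12, so the ages overlapped, and the strain difference of its change was -2.92 ± 0.60 (adjusted p = 0.015). Neurod1 rose by 0.69 ± 0.19 in C57Bl/6 and fell by 0.99 in CD-1 (adjusted p = 0.048 and 0.0012). Neurod4 and Pou4f1 fell over both strains (-1.20 ± 0.34 and -1.82 ± 0.39), with -1.96 and -2.97 in CD-1 and -0.44 and -0.66 in C57Bl/6.

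In the Notch pathway 3 of 24 genes were called higher (12.5%) and 2 lower (8.33%), near the 10.1% and 7.6% of all genes (median 0.23). Dner, a neuronal transmembrane ligand of Notch, rose from 215 and 230.0 in C57Bl/6 and 72.1 and 80.9 in CD-1 to 441 and 547 in C57Bl/6 and 748 and 1291 in CD-1 (2.26 ± 0.36, adjusted p = 0.00066). Hes5, a repressor switched on by Notch in progenitors, had 257 and 243 in C57Bl/6 and 266 and 373 in CD-1 at E11 and 396 and 429 in C57Bl/6 and 967 and 537 in CD-1 at E12 and rose by 0.92 ± 0.29 (adjusted p = 0.036, and 0.0725 with the mean of its probe sets). Mfng, a glycosyltransferase that tunes the receptors, rose by 0.90 ± 0.19. The ligands Dll1 (0.50 ± 0.19, adjusted p = 0.088) and Dll3 (0.31 ± 0.22, 0.36), the receptor Notch1 (0.29 ± 0.22, 0.40) and the target Hes1 (-0.23 ± 0.16, 0.33) were not called.

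Axon guidance and adhesion genes rose in 16 of 51 cases (31.4%) and fell in 4 (7.84%), with a median of 0.40. Over all genes 10.1% were called higher and 7.6% lower, so the share of falls was near that of all genes. After Chl1 the largest changes were rises of the netrin receptor Dcc (1.62 ± 0.28) and the repellent Slit1 (1.54 ± 0.45, adjusted p = 0.027). Slit1 overlapped between the ages, since the C57Bl/6 female of E11 already had 122, above the 106 of that of E12, and its call was lost with the mean of its probe sets (adjusted p = 0.0617).

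Regional transcription factors of the hypothalamus and preoptic area rose in 14 of 55 cases (25.45%) and fell in 6 (10.9%). Over all genes the shares were 10.1% and 7.6%. The median of the list was 0.58. Otp, without which magnocellular neuroendocrine neurons do not form, had 1398 and 1316 in C57Bl/6 and 608 and 604 in CD-1 at E11 and 3044 and 3390.4 in C57Bl/6 and 1948 and 2041 in CD-1 at E12. It rose by 1.46 ± 0.40 (adjusted p = 0.020), and C57Bl/6 was higher than CD-1 at both ages. Sim1, which acts in the same neurons, rose by 1.22 ± 0.34, and Isl1, a factor of arcuate neurons, by 0.83 ± 0.24. Dlx1 and Dlx2, factors of GABA neurons, rose by 1.77 ± 0.31 and 1.70 ± 0.34. Dlx1 went from 406 and 372 in C57Bl/6 and 253 and 149 in CD-1 to 697 and 639 in C57Bl/6 and 1480.0 and 1400.5 in CD-1, and its rise was larger in CD-1 by 2.03 ± 0.25 (adjusted p = 0.00065). Lhx1 and Lhx5, LIM factors of the mammillary region and other diencephalic cells, rose by 1.20 ± 0.35 and 0.70 ± 0.21. The calls of Lhx1 at an offset of 1 (adjusted p = 0.0872) and of Sim1 with the mean of its probe sets (0.0937) were lost.

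Several other members were not called. Nkx2-1 changed by 0.38 ± 0.33, Nkx2-2 by 0.43 ± 0.26, Rax by -0.46 ± 0.34, Six3 by 0.10 ± 0.26, Six6 by -0.06 ± 0.35, Fezf2 by 0.85 ± 0.39, Lhx9 by 0.91 ± 0.32 and Foxb1 by 0.33 ± 0.35, with adjusted p from 0.065 (Lhx9) to 0.92 (Six6). Rax went from 82.0 and 133.6 to 95.6 and 153.9 in C57Bl/6 and from 49.1 and 71.6 to 24.4 and 14.4 in CD-1. Six3 went from 538.7 and 780.7 to 472.1 and 556.9 in C57Bl/6 and from 217.8 and 178.5 to 283.3 and 300.2 in CD-1. The strain difference was not called for Rax or Six3. The 6 called lower were Tbx2 (-1.81 ± 0.48), Gata2 (-0.91) and the Irx factors of the more caudal diencephalon and midbrain, Irx1 (-0.97), Irx2 (-0.90), Irx3 (-1.21) and Irx5 (-1.07). Tbx2, a factor of the ventral midline, had 36.4 and 28.2 in C57Bl/6 and 326 and 146 in CD-1 at E11 and 22.7 and 6.76 in C57Bl/6 and 11.5 and 18.7 in CD-1 at E12, so that the 2 CD-1 E11 arrays were far above the other 6.

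Genes of progenitors and radial glia rose in 10 of 37 cases (27.0%) and fell in 1 (2.70%), against 10.1% and 7.6% of all genes (median 0.45). Fabp7, a fatty-acid-binding protein of radial glia, rose from 803 and 1014 in C57Bl/6 and 847 and 1646 in CD-1 to 2726 and 2204 in C57Bl/6 and 5158 and 4117 in CD-1 (1.69 ± 0.21, adjusted p = 8.9e-05). Nfix, a factor of the later phases of progenitor life, rose from 26.9 and 40.9 in C57Bl/6 and 15.7 and 28.8 in CD-1 to 148 and 141 in C57Bl/6 and 287 and 386 in CD-1 (2.45 ± 0.28). The matrix proteoglycan Ncan rose by 2.04 ± 0.38 and the membrane protein Ttyh1 by 1.69 ± 0.23. Sox2 (0.55 ± 0.20, adjusted p = 0.068), Nes (0.36 ± 0.19, 0.22) and the glutamate transporter Slc1a3 (0.45 ± 0.22, 0.18), which are general to progenitors or radial glia, were not called.

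Of 32 chromatin regulators, 11 were called higher (34.4%) and 3 lower (9.38%), with a median of 0.02. Over all genes 10.1% were called higher and 7.6% lower, so the share of falls was near that of all genes. The BAF remodelling complex exchanges subunits as cells become neurons. Its neuronal subunits Actl6b (1.91 ± 0.30), Smarcd3 (1.43 ± 0.17) and Dpf1 (1.39 ± 0.16) rose, and Ss18l1 rose by 1.30 ± 0.20. The progenitor subunit Actl6a (-0.47 ± 0.14) fell, and so did Rest, which silences neuronal genes in other cells (-1.25 ± 0.20). Actl6b signal was 21.3 and 32.5 in C57Bl/6 and 45.6 and 40.7 in CD-1 at E11 and 141 and 89.4 in C57Bl/6 and 178 and 376 in CD-1 at E12, with the CD-1 male of E12 the highest and no overlap. Ss18l1, Actl6a and Rest fall outside the rule for named genes and were added after their values were seen.

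DNA replication and G1/S genes fell in 23 of 46 cases and none rose, with a median of -0.57. Ccne1, the cyclin that starts S phase, had 362 and 405 in C57Bl/6 and 490.0 and 506 in CD-1 at E11 and 201 and 148 in C57Bl/6 and 138 and 69.7 in CD-1 at E12. Its change was -1.62 ± 0.25 (adjusted p = 0.00046), and every E12 value was below every E11 value. The licensing factor Cdt1 had a change of -0.98 ± 0.17 and the helicase subunit Mcm4 one of -0.96 ± 0.20. Genes of mitosis and G2/M fell in 25 of 51 cases and none rose (median -0.52), led by the spindle motor Kif23 (-0.83 ± 0.19), the cytokinesis protein Anln (-0.81 ± 0.20) and the checkpoint kinase Ttk (-0.79 ± 0.20). Mki67, the proliferation marker, had 2508 and 2703 in C57Bl/6 and 1601 and 1324 in CD-1 at E11 and 1643 and 1934 in C57Bl/6 and 647 and 845 in CD-1 at E12 and a change of -0.75 ± 0.18 (adjusted p = 0.0089). Each strain fell, but the E12 values of C57Bl/6 overlapped the E11 values of CD-1. Neither list had a member called higher in either strain, and the called falls in C57Bl/6 were 2 of 46 and 0 of 51, against 27 and 35 in CD-1, where 0.7% of all genes were called lower in C57Bl/6 and 11.9% in CD-1. In bulk tissue, fewer cells of a type and less RNA per cell cannot be told apart.

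Among the cyclins D and cell cycle inhibitors 7 of 25 rose (28%) and 2 fell (8%). The share of falls was near the 7.6% of all genes, while 10.1% of all genes were called higher. Cdk5r1, the activator of the neuronal kinase Cdk5, rose by 1.61 ± 0.28, the retinoblastoma gene Rb1 by 0.96 ± 0.18 and Ccng2, a cyclin of resting cells, by 0.83 ± 0.14. Ccnd2 fell by 0.57 (SE 0.16, adjusted p = 0.022, and 0.0556 with the mean of its probe sets), and Ccnd1 (-0.35 ± 0.23, 0.33) and the inhibitor Cdkn1c (-0.34 ± 0.21, 0.29) were not called.

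Promoters of some called replication and mitosis genes are shown because calls in both lists went only downward. The 250 bases before the start site were taken from RefSeq promoters of GRCm38.p6 and searched on both strands. The motifs were E2F elements (TTTGGCGC, TTTCCCGC, TTTCGCGC or TTTGCCGC), the cell cycle homology region (TTTGAA), the CCAAT box (CCAAT) and the E box (CAGCTG or CAGATG). The cytoskeleton, vesicle and mesenchyme lists were searched too. Of the called replication genes 20 were in the table and 8 of them (40.0%) held an E2F element, against 386 of 10142 promoters of genes tested (3.81%). Of the called mitosis genes 21 were in the table, and 7 (33.3%) held the cell cycle homology region, against 12.8% of genes tested, 15 (71.4%) held a CCAAT box, against 40.4%, and 0 held an E2F element. A match is a run of letters, not a site shown to be bound. The shares over called and uncalled members were E2F in 29.3% of all tested replication genes and, in all tested mitosis genes, the cell cycle homology region in 36.6% and a CCAAT box in 75.6%. Over all genes called lower the shares were 5.12% for E2F and 13.9% for the cell cycle homology region. Of the called mesenchyme genes 18 were in the table, and 6 of them (33.3%) held the cell cycle homology region as well. The promoters below hold the most matches of E2F (Mcm6 and Mcm5) or of the cell cycle homology region (Mki67 and Top2a) among called genes of the replication and mitosis lists. Only genes with a single start site in the promoter table were ranked, and ties went to the larger fall. Capitals mark these matches only, and CCAAT boxes are left in lower case. In both Mcm promoters a forward and a reverse E2F match overlap in 1 run of capitals. Mcm6 and Mcm5 code for subunits of the replication helicase and had changes of -0.77 ± 0.19 and -0.93 ± 0.20. Top2a, the topoisomerase of dividing cells, had a change of -0.47 ± 0.14. The positions are chr1:128359706-128359955, minus strand for Mcm6, chr8:75109259-75109508, plus strand for Mcm5, chr7:135716380-135716629, minus strand for Mki67 and chr11:99024190-99024439, minus strand for Top2a.
Mcm6: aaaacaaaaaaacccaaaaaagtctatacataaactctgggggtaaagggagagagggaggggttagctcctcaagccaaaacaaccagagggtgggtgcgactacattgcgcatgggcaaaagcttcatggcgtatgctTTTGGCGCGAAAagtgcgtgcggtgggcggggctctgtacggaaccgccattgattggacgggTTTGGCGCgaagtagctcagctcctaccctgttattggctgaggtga
Mcm5: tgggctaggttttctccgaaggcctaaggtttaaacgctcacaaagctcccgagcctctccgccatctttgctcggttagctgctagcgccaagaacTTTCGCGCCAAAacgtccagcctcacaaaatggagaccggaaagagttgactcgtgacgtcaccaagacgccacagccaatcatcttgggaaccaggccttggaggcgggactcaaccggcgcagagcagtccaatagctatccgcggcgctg
Mki67: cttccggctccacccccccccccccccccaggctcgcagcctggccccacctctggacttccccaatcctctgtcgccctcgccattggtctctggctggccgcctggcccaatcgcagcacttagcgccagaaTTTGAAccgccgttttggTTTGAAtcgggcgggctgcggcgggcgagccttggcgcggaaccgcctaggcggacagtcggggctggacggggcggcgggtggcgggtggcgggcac
Top2a: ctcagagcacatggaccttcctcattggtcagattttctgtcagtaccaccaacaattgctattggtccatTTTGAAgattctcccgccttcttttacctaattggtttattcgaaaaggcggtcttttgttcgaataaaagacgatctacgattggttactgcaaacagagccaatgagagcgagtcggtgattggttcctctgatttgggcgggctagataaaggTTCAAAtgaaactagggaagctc

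Of 25 genes of early, undifferentiated embryonic cells, 10 fell (40%) and 3 rose (12%), with a median of -0.28. Over all genes 7.6% were called lower and 10.1% higher. Hmga2, a chromatin protein of early progenitors, had 3062 and 3417 in C57Bl/6 and 5575 and 3595 in CD-1 at E11 and 1214 and 1932 in C57Bl/6 and 1286 and 864 in CD-1 at E12. Its change of -1.57 ± 0.24 (adjusted p = 0.00043) left no overlap. The stem cell factor Sall4 (-1.98 ± 0.31), the early epithelial junction protein Cldn6 (-1.73 ± 0.35) and Lin28a, which blocks the maturation of let-7 microRNAs (-1.28 ± 0.33), fell too. Lin28a signal was 111 and 123 in C57Bl/6 and 80.7 and 127 in CD-1 at E11 and 45.5 and 45.8 in C57Bl/6 and 28.3 and 25.9 in CD-1 at E12.

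In the Shh, Wnt, Bmp, Fgf and retinoic acid lists no more members were called higher than lower. For Shh 4 of 14 fell (28.6%) and 0 rose (median -0.59), and for Wnt 5 of 34 fell (14.7%) and 1 rose (-0.36). For Bmp, Tgf-beta and activin 8 of 29 fell (27.6%) and 1 rose (-0.42). For retinoic acid handling and Hox genes 4 of 15 fell (26.7%) and 0 rose (-0.98). For Fgf 2 of 18 went each way (11.1%, median -0.19), near the shares of all genes, which were 10.1% higher and 7.6% lower. Shh itself, the ventral signal, had 3171 and 2874 in C57Bl/6 and 1129 and 1269.9 in CD-1 at E11 and 1179 and 1394 in C57Bl/6 and 1426 and 861 in CD-1 at E12. It was not called over both strains (-0.67 ± 0.24, adjusted p = 0.062), and its change was -1.23 ± 0.20 in C57Bl/6 and -0.11 ± 0.20 in CD-1 (adjusted p of the difference = 0.047). The Shh co-receptor Gas1 (-1.41 ± 0.35) and the effectors Gli1 (-0.89 ± 0.27) and Gli3 (-0.85 ± 0.18) fell, while the receptor Ptch1 was not called (-0.17 ± 0.15).

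The Wnt receptor Fzd7 (-1.17 ± 0.31), the Wnt-pathway repressor Tcf7l1 (-1.15 ± 0.23) and the secreted antagonist Sfrp2 (-0.99 ± 0.19) fell, and so did Bmp5 (-1.20 ± 0.22) and the Bmp inhibitors Smad6 (-1.24 ± 0.31) and Bambi (-1.03 ± 0.29). Bmp4 had 59.3 and 43.8 in C57Bl/6 and 154 and 197 in CD-1 at E11 and 35.1 and 50.8 in C57Bl/6 and 36.9 and 44.8 in CD-1 at E12 and was not called over both strains (adjusted p = 0.090), with -1.75 ± 0.31 in CD-1 (adjusted p = 0.00063). The 2 CD-1 E11 values were the highest of the 8. Fgf15 rose in CD-1 (2.79 ± 0.27) with a change of 0.15 ± 0.27 in C57Bl/6, and the difference between the strains was called (adjusted p = 0.0020). Fgf10, a ligand of the ventral midline, was not called (-0.31 ± 0.39), and Crabp1 and Rarb, which bind retinoic acid in the cytoplasm and nucleus, fell (-2.46 ± 0.47 and -1.46 ± 0.37).

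Imprinted genes rose in 6 of 24 cases (25%) and fell in 2 (8.33%), where 10.1% of all genes were called higher and 7.6% lower. Magel2, a gene of the Prader-Willi region, rose by 1.23 ± 0.24 and Usp29 by 1.73 ± 0.24, whereas the growth factor Igf2 went from 782 and 1553 in C57Bl/6 and 2794 and 3225 in CD-1 to 580.2 and 775 in C57Bl/6 and 457 and 300.0 in CD-1 (-1.83 ± 0.33, adjusted p = 0.0017). Usp29 changed by -0.31 at an offset of 1, and its other tested probe set changed by -0.27 at the offset of 16. Of 34 hypoxia and glycolysis genes 7 fell and 1 rose, led by Ldha (-0.96 ± 0.25), and immediate early and stress genes fell in 4 of 26 and rose in 1, with Fos at -1.47 ± 0.40 and Dusp1 at 0.99 ± 0.19.

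The deepest falls belonged to connective tissue. Of 31 mesenchyme and meninges genes, 26 fell and 1 rose (median -1.77), against 7.6% of all genes called lower. Col3a1, a fibrillar collagen, had 830.3 and 1338 in C57Bl/6 and 3147 and 3628 in CD-1 at E11 and 344 and 711 in C57Bl/6 and 125 and 61.5 in CD-1 at E12. Its change was -3.04 ± 0.54 over both strains (adjusted p = 0.0013), -1.07 ± 0.31 in C57Bl/6 and -5.02 ± 0.31 in CD-1. The CD-1 E11 arrays were the highest and the CD-1 E12 arrays the lowest. Snai2 and Twist1, factors of neural crest and mesenchyme, had changes of -3.29 ± 0.45 and -2.96 ± 0.49, with 67.8 and 131 in C57Bl/6 and 1005 and 612 in CD-1 for Snai2 at E11 and 19.3 and 14.6 in C57Bl/6 and 12.6 and 12.2 in CD-1 at E12. The summed signal of the 4 defining markers Twist1, Prrx1, Col3a1 and Col1a1 was 1614 to 4953 at E11 and 169 to 1248 at E12.

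Of the 12 largest falls of single genes, 11 had a called strain difference and all 12 were called in CD-1, against 6 in C57Bl/6. Beside Snai2, Col3a1, Twist1, Crabp1 and the embryonic globin Hbb-bh1 they were the collagen-processing protein Pcolce (-2.76), the collagen Col9a1 (-2.72), the chemokine Cxcl12 (-2.72), the factor Foxc2 (-2.69), Crym (-2.52), Hemgn of red cell precursors (-2.46) and Cnn2 (-2.46). For 9 of them all E12 values were below all E11 values, against 7.85% of all genes.

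Genes of surface and oral epithelium and the pituitary primordium fell in 10 of 20 cases with none rising (median -1.01). Krt18, an epithelial keratin, had 360.1 and 342 in C57Bl/6 and 350.4 and 330.2 in CD-1 at E11 and 161 and 169 in C57Bl/6 and 32.7 and 16.7 in CD-1 at E12 (-2.09 ± 0.35, adjusted p = 0.00091). Esrp1, a splicing factor of epithelia, and Pitx1, an oral and pituitary factor, fell by 1.47 and 1.43. Of 19 primitive red cell genes 4 fell (21.05%) and 1 rose (5.26%). Hbb-bh1 had 14264 and 10198 in C57Bl/6 and 6005 and 5765 in CD-1 at E11 and 3693 and 8141 in C57Bl/6 and 667 and 196 in CD-1 at E12, and its change was -2.55 ± 0.54, with overlap through the C57Bl/6 E12 male. Endothelium and pericyte genes fell in 6 of 31 cases, or 19.35% (Pdgfrb -1.25, Emcn -1.15, Aplnr -0.97). Macrophage genes fell in 3 of 19, or 15.8% (F13a1 -1.38, with its call lost at an offset of 1, Pf4 -1.29, Mrc1 -1.24). Neither of these 2 lists had a member called higher. Over all genes 10.1% were called higher and 7.6% lower.

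The tissue lists and the neural lists changed in the same arrays, but their changes were split differently between the strains. The cytoskeleton median was 0.95 in C57Bl/6 and 1.50 in CD-1, and the mesenchyme median was -0.73 and -3.06. At E11 the median of CD-1 minus C57Bl/6 was -0.04 for the cytoskeleton list and 1.29 for the mesenchyme list. The part of non-neural tissue in the neural results was not tested. In a fit without the 2 CD-1 E11 arrays, which had the highest mesenchyme level, 387 genes were called higher and 58 lower in all, and the counts were 11 higher of 35 for the cytoskeleton, 5 of 19 for RNA-binding proteins, 9 of 31 for vesicles and 4 of 27 for transmitters. In that fit replication genes had 2 lower of 46, mitosis genes 0 of 51 and mesenchyme genes 5 of 31. Without the 2 C57Bl/6 E11 arrays, which stood apart in signal, 1398 genes were higher and 1279 lower, with 26 cytoskeleton genes higher and 25 replication, 36 mitosis and 24 mesenchyme genes lower. With single arrays left out, the count of all calls was 1211 without the CD-1 E11 female, 1344 without the CD-1 E12 male and 1454 without the CD-1 E12 female.

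**Figure D3:**
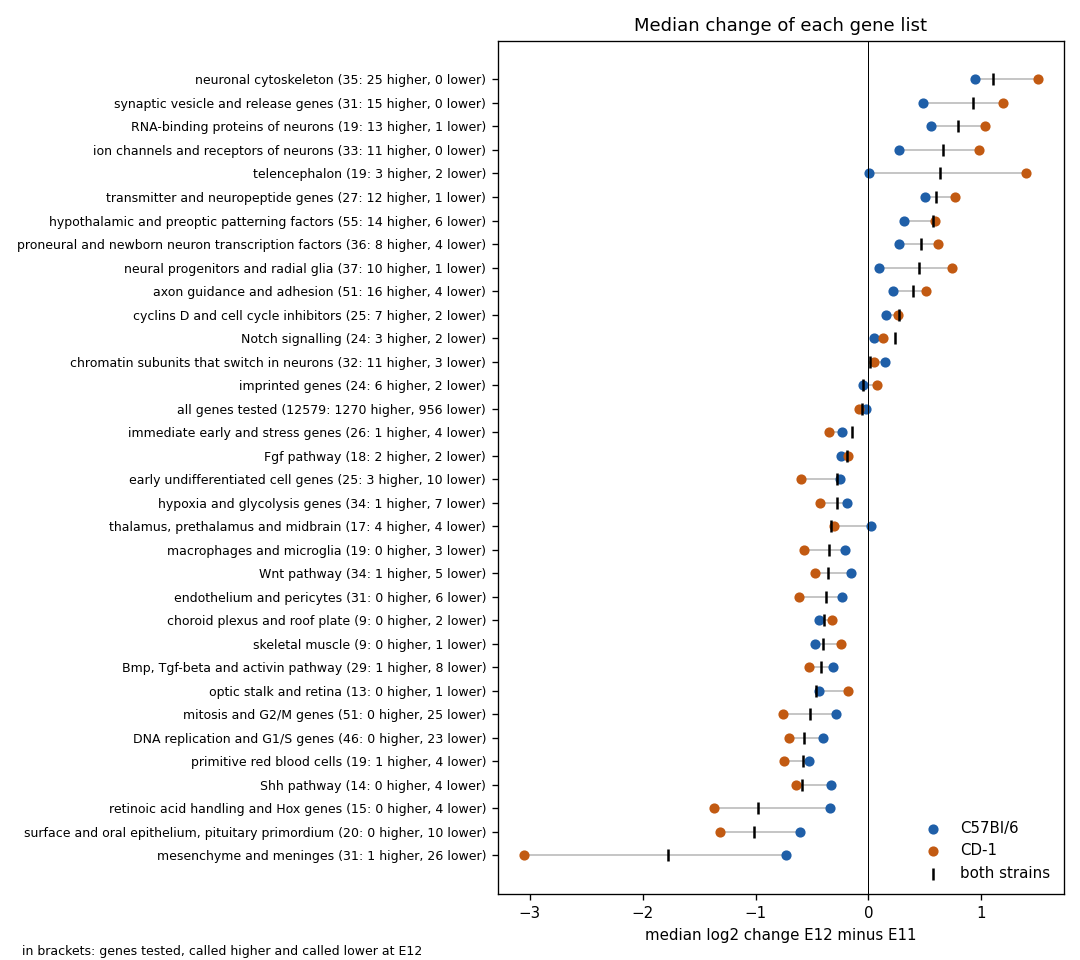
Median log2 change from E11 to E12 of the tested members of 33 gene lists and of all genes tested, with the C57Bl/6 median in blue, the CD-1 median in orange and the fit of both strains as a black bar. The cytoskeleton, RNA-binding, vesicle, channel and transmitter lists lie to the right in both strains, the replication and mitosis lists to the left, and the strains part most for mesenchyme (-0.73 against -3.06) and telencephalon genes (0.009 against 1.39).

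The strains were compared on arrays they do not share, and the actin ratio was higher in every C57Bl/6 array than in any CD-1 array. The part of array quality in the strain differences was not tested. Over the 12579 genes the C57Bl/6 and CD-1 changes had a Pearson correlation of 0.562 and a Spearman correlation of 0.545, as a description over genes, which are not independent. The sign was the same for 70.4% of genes. Within C57Bl/6 480 genes were called higher (3.82%) and 88 lower (0.7%), and within CD-1 1529 higher (12.2%) and 1501 lower (11.9%). The C57Bl/6 count was 25 without its E12 female, 92 without its E11 female and 214 without its E12 male, 1014 with quantile normalization, 330 with the 8 arrays alone, 1498 with 36 arrays, 982 with all 48 and 1078 with array weights. The CD-1 count was 1984 without its E11 female and 1969 without its E12 male. Of the 568 C57Bl/6 calls (4.52% of genes) 93.5% had the same sign in CD-1, and of the 3030 CD-1 calls (24.1%) 88.0% had the same sign in C57Bl/6. The 407 genes called in both with the same sign are 71.7% of the C57Bl/6 calls and 13.4% of the CD-1 calls, and 3 were called with opposite signs. The number called in both was 22 without the C57Bl/6 E12 female, 83 without the C57Bl/6 E11 female and 173 without the C57Bl/6 E12 male.

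A difference of the change between the strains was called for 406 genes (3.23%), 160 with the higher value in CD-1 (1.27%) and 246 with the lower (1.96%). Of these, 296 moved further in CD-1 in the same direction, 4 moved further in C57Bl/6 and 106 had opposite signs. Of the mesenchyme list, 23 of 31 were called, all lower in CD-1. The number called was 134 without the C57Bl/6 E12 male, 189 without the C57Bl/6 E11 female, 195 without the CD-1 E12 male, 230 without the C57Bl/6 E12 female and 245 without the CD-1 E11 male.

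The genes with the largest difference in the higher direction include markers of the telencephalon, the brain part next to the preoptic area. Of 19 telencephalic genes 6 were called higher in CD-1 than in C57Bl/6 for the change and 1, Ebf1, lower. Tbr1, a factor of cortical neurons, had 24.1 and 15.8 in C57Bl/6 and 19.5 and 6.74 in CD-1 at E11 and 20.7 and 25.2 in C57Bl/6 and 150.3 and 264 in CD-1 at E12. It changed by 2.93 ± 0.43 in CD-1 and 0.12 ± 0.43 in C57Bl/6 (adjusted p of the difference = 0.019). Neurod6, another factor of cortical neurons, had 6.59 and 26.9 in C57Bl/6 and 19.6 and 0.71 in CD-1 at E11 and 13.2 and 8.78 in C57Bl/6 and 188 and 129 in CD-1 at E12 (difference 3.03 ± 0.75, adjusted p = 0.039), so that the 2 CD-1 E12 arrays stood above the other 6. Reln, the signal of Cajal-Retzius cells, changed by 2.77 ± 0.28 in CD-1 and 0.53 ± 0.28 in C57Bl/6 (difference adjusted p = 0.0051). Eomes, Neurod2 and Tle4 were the other 3, with differences adjusted p of 0.0055, 0.0092 and 0.027. In the fit of both strains 3 of 19 telencephalic genes rose (15.8%) and 2 fell (10.5%), against 10.1% and 7.6% of all genes. Among the rises was Lhx6 (0.90 ± 0.29), a factor of ventral telencephalic and hypothalamic GABA neurons. The call of Lhx6 was lost with the mean of its probe sets (adjusted p = 0.207). Foxp2 (-0.94 ± 0.22) was among the falls. The other large differences were higher for Ttc9b (3.71) and Gm3764 (3.17), and lower for Pcolce (-3.93), Emilin1 (-3.78), Col3a1 (-3.96) and Svep1 (-3.87), which all code for proteins of the extracellular matrix or its assembly.

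**Figure D4:**
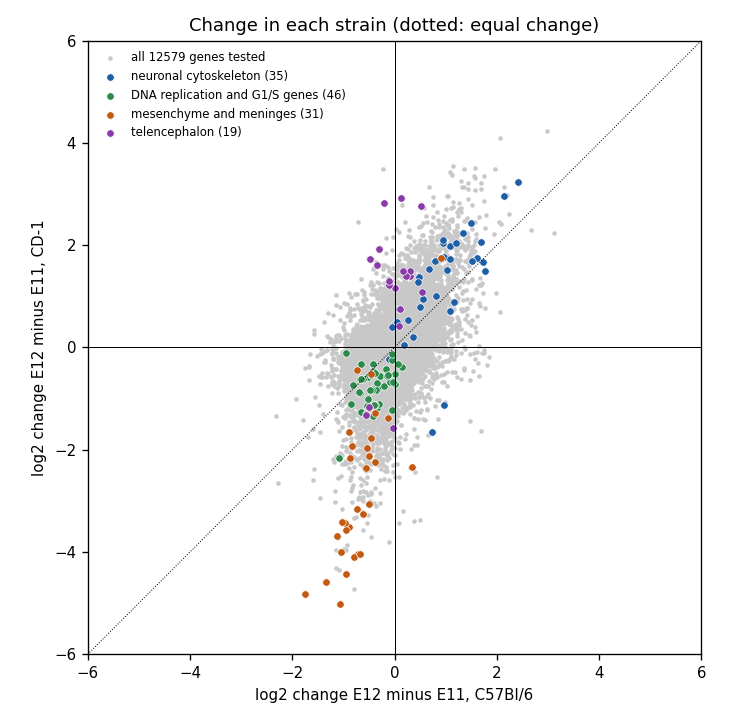
Log2 change from E11 to E12 in C57Bl/6 (horizontal) against CD-1 (vertical) for the 12579 genes tested in grey, with 4 gene lists in colour and the line of equal change dotted. Cytoskeleton genes lie mostly in the upper right, most mesenchyme genes lie far below the line, and several telencephalic genes lie high in CD-1 with little change in C57Bl/6.

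The days before and after share the E11 or the E12 arrays with this comparison, so their values are given side by side only. From E10 to E11, 1163 genes were called higher (9.25%) and 1089 lower (8.66%), and from E12 to E13 0 were called (0%) by limma, with 576 at an unadjusted p under 0.05 and 551 called with array weights. Otp changed by 2.44 from E10 to E11, 1.46 from E11 to E12 and 0.16 from E12 to E13. Tubb3 changed by 0.54, 1.70 and 0.05 over the same days, Gap43 by -0.07, 1.64 and 0.49, Slc17a6 by 1.22, 2.26 and 0.23, and Ccne1 by -0.97, -1.62 and -0.08. Nkx2-2 (1.75), Six3 (1.24) and Nkx2-1 (1.06) were called higher over both strains in the step from E10 to E11 (adjusted p = 0.0021, 0.0097 and 0.039). Within the strains, 31 of the 55 hypothalamic factors were called higher and 6 lower in this step in C57Bl/6, against 0 each way in CD-1. Over all 12579 genes 3261 were called higher in this step in C57Bl/6 and 10 in CD-1. The mesenchyme list had a median of -0.13 from E10 to E11 over both strains, with 2 of 31 called each way. Within the strains, 14 of the 31 were called lower and 6 higher in this step in C57Bl/6 (median -0.50). In CD-1 0 were called each way (median 0.23). Over all genes 2904 were called lower in this step in C57Bl/6 and 0 in CD-1.

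A test of the difference between successive changes called 2 genes against the day before, both higher (0.0159%), and 5 against the day after, all lower (0.0397%). The 2 were Resp18 (3.37 ± 0.50, adjusted p = 0.026) and Gap43 (1.70 ± 0.21, adjusted p = 0.0060), and Tubb2a and Tubb3 were among the 5 (-1.61 ± 0.23 and -1.65 ± 0.26, adjusted p = 0.032 and 0.044). The counts were 1396 and 264 in a fit of 36 arrays of E10 to E18, and 1273 and 315 with array weights. Within the strains the step from E10 to E11 called 6165 genes in C57Bl/6 (49%) and 10 in CD-1 (0.0795%), while that from E11 to E12 called 568 and 3030, and that from E12 to E13 26 (0.207%) and 0 (0%, with 441 at an unadjusted p under 0.05). A strain difference in how the change from E11 to E12 departed from that from E10 to E11 was called for 1331 genes (10.6%). At E11 itself 3003 genes differed between the strains (23.9%), against 1689 at E10 (13.4%), 1196 at E12 (9.51%) and 2061 at E13 (16.4%).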

How the data were processed

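Hypothalamus and preoptic area were measured on Affymetrix MOE430 arrays after 1 round of oligo-dT amplification, per the labels' protocols. The values are signal intensity as deposited, made with MAS5 in GCOS 1.4 per the submitters' processing notes; the 2% to 98% trimmed mean was 150.0 on every array. No genome build enters these values.

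Of 45101 probe sets, 34945 carried 1 symbol in the platform annotation, 932 several and 9160 none listed, and 34741 matched RefSeq. Each gene kept its probe set with the highest mean. Genes above the array median in at least 4 of the 16 arrays of E10 to E13 were kept (12579). log2(signal + 16) was fitted on age, strain and sex in limma 3.58.1 (R 4.3.3) with a trended prior. Strain effects came from a fit with a mean for each age and strain plus sex. p-values were two-sided, with Benjamini-Hochberg adjustment over all genes tested. Each age, strain and sex holds 1 array, so the number of arrays limits the precision. Alternatives were the offset, filter, probe set rule, normalization, arrays fitted, array weights, terms, block and each array left out.

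The text names the 12 largest rises and falls with 1 sign in all 4 pairs, the 3 largest called changes of each list, a list of key genes, and the 4 largest strain and interval differences each way; genes called against both E11 and E13 were to be named too, but none was called against E13. Mbnl2, Penk, Nefl, Nefm, Ss18l1, Actl6a, Rest, Gata2, Irx1, Irx2, Irx3, Irx5, Ebf1, Eomes, Neurod2, Tle4, Mcm5, Mcm6 and Top2a fall outside the rule and were named after their values were seen. The comparison, gene lists and key genes were chosen with earlier results of these data known.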

Additional observations from a re-analysis of the deposited data

Results flagged for a closer look

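Among 143 genes named in the text and 286 groups of 4 arrays, 10 groups held 1 array far from the other 3, where chance alone marks about 1 in 20 groups. The CD-1 E12 male was the highest for Celf5 (2082), Slit1 (299) and Tlcd3b (1083). The CD-1 E11 female was the lowest for Lhx1 (33.6), Neurog2 (120.3) and Scn3a (32.8). The others were the C57Bl/6 E11 female for Sim1 (257, the highest), the C57Bl/6 E12 female for Foxb1 (81.2, the highest), the C57Bl/6 E12 male for Crabp1 (67.9, the highest) and the CD-1 E11 male for Ttk (389.7, the highest).

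The change from E11 to E12 differed between the strains for 45 of these genes in limma's test of the difference, 17 with the higher value in CD-1 and 28 with the lower. Some were genes of neurons and progenitors, with CD-1 minus C57Bl/6 on the log2 scale of 2.35 for Dner, 2.03 for Dlx1, 2.02 for Tmem130, 1.79 for Celf5, 1.67 for Rab3c, 1.60 for Tlcd3b, 1.59 for Celf4, 1.53 for Chl1, 1.51 for Nfix and 1.11 for Cdk5r1. The same difference was 3.71 for Ttc9b, 3.17 for Gm3764, 3.03 for Neurod6, 2.80 for Tbr1, 2.65 for Fgf15, 2.24 for Reln and 1.12 for Shh.

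Genes of mesenchyme or matrix and others among the largest falls had differences of -3.96 for Col3a1, -3.93 for Pcolce, -3.87 for Svep1, -3.78 for Emilin1, -3.47 for Foxc2, -3.28 for Cxcl12, -3.25 for Twist1, -3.17 for Col9a1, -3.06 for Snai2, -3.01 for Crabp1, -2.97 for Crym and -2.97 for Cnn2. Blood, vessel and macrophage genes had -2.82 for Hbb-bh1, -2.27 for Pf4, -1.91 for Pdgfrb, -1.82 for Emcn, -1.46 for Mrc1 and -1.43 for Aplnr. Transcription factors had -2.92 for Neurog1, -2.31 for Pou4f1, -2.23 for Tbx2, -1.68 for Neurod1 and -1.64 for Sall4. The remaining differences were -2.26 for Igf2, -2.14 for Krt18, -1.997 for Smad6, -1.95 for Bambi and -1.77 for Rarb.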

How the results depend on the processing

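The count of 2226 genes called between E11 and E12 was 3350 with every probe set on its own, 3543 in a fit of 36 arrays, 3491 with all arrays but the P42 C57Bl/6 male, 1359 with age as the only term, 934 in C57Bl/6 alone, 152 in females alone and 0 in males alone (1693 at an unadjusted p under 0.05), 756 for changes of at least 2-fold, and, in an alternative chosen after seeing the data, 445 without both CD-1 E11 arrays. With 1 array left out it was 1211 to 2321. With each strain and sex series as a replicate block it was 2069. The strain difference was called for 228 genes with the 8 arrays alone, 927 with 36 arrays and 660 with all 48, and 134 to 482 with 1 array left out. Genes called in both strains were 247, 886 and, with 1 array left out, 22 to 425. The 2 genes that differed from the day before were 1 at an offset of 1, 40 with quantile normalization, 1396 with 36 arrays, 1001 with all 48 and 1273 with array weights, and 0 to 7 with 1 array left out. The 5 that differed from the day after were 1, 264, 150 and 315 at an offset of 1, with 36 arrays, all 48 and array weights, and 0 to 32 with 1 array left out. Signs turned for Usp29 (-0.31 at an offset of 1), Neurod1 (0.69 in C57Bl/6 alone) and Neurog1 (-1.44 in CD-1 alone, -1.32 without both C57Bl/6 E11 arrays). The cause was not tested.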
